A study of Gallus gallus with 5 samples.

Results

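FGF signalling was followed through chick otic development by the transcripts of its ligands, receptors, adaptors, transcription factors and feedback inhibitors. A locus was taken as a member by its symbol in the deposited tables: a numbered FGF, FGFR, FGFBP, SPRY, SPRED or FLRT gene, FGFRL1, DUSP4, DUSP6, DUSP7, ETV1, ETV4, ETV5, IL17RD, FRS2 or FRS3. The symbols matched 40 loci. SPRY4 stood on a pair of loci with identical counts and was counted once, which leaves 39 members of 18365 loci with counts. Of these, 36 were matched in the count table and 3 (SPRY2, FLRT2 and FLRT3) in the RPKM table alone. No locus was matched under the symbols DUSP6 and ETV1, and a locus that is DUSP6 by its description is given apart below.

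RNA came from Bovans Brown chick embryos, with 1 library for each of 5 conditions. These were posterior pre-placodal region (PPR) at Hamburger-Hamilton stage HH6, otic-epibranchial progenitors (OEPs) at 5-6 somites (5-6ss), the thickened placode at 8-9ss, the placode as it invaginates at 11-12ss, and the embryo as a whole at 3ss. The ectoderm of the region was cut out after the layers below it had been peeled off with dispase, and many pieces were pooled for a library. The whole embryo holds all germ layers, and its 3ss stage lies between that of PPR and that of OEPs.

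FGFs are secreted proteins that bind receptor tyrosine kinases at the cell surface together with heparan sulfate. The receptors act through FRS adaptors and the RAS-MAPK cascade on transcription factors of the ETV group, and the pathway switches on its own inhibitors, among them Sprouty and Spred proteins, the phosphatase DUSP6 and the membrane protein IL17RD (Sef). In chick, FGFs of the mesoderm, endoderm and hindbrain are known as inducers of the otic and epibranchial placodes, with FGF3, FGF8 and FGF19 best studied.

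Levels between libraries are given as normalized counts, which are read counts divided by a size factor over the 5 libraries. Levels between genes are given as RPKM, which scales reads by transcript length and by the depth of the library, as deposited. A fold change was taken from the counts of the 2 libraries compared. It was called when it passed 1.5 and when, in whichever library of the pair was higher, RPKM exceeded 4 and the normalized count exceeded 300. Its 95% interval is the exact binomial (Clopper-Pearson) interval of the 2 counts and covers counting error only. With 1 library for each condition no spread between embryos could be measured and no test was made, so each fold change compares a pair of libraries. In such bulk tissue, fewer cells that express a gene and less RNA per cell cannot be told apart.

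Total counts were 136916870 in PPR and between 26858887 and 46345428 in the other 4 libraries. Surface ectoderm and placode markers (12 of 13 matched to a locus) summed to between 1609 and 3136 RPKM in the 4 dissected tissues and to 934.2 RPKM in the whole embryo. Notochord markers (4 of 5 matched) summed to between 5.97 and 7.32 RPKM in the dissected tissues, against 470.7 RPKM in the whole embryo. Mesoderm markers (8 of 11) summed to 15.6 RPKM in PPR, 38.9 at 5-6ss, 44.5 at 8-9ss, 59.8 at 11-12ss and 369.5 in the whole embryo, with PRRX1 alone 1.58-fold above the whole embryo at 11-12ss. Blood and vessel markers (6 of 9) summed to 1.38, 11.5, 13.6 and 24.3 RPKM from PPR to 11-12ss and to 32.0 RPKM in the whole embryo, and neural crest markers (3 of 6) to 19.0, 40.9, 25.0 and 31.7 RPKM and to 62.6 RPKM. The sums of these 3 lists were thus lowest in PPR. At 5-6ss the mesoderm sum came mainly from FOXC2 with 30.0 RPKM, and the blood and vessel sum mainly from LMO2 with 8.37 RPKM. Endoderm markers (5 of 8, none at 0) stood apart at 5-6ss: they summed to 33.4 RPKM in PPR, 115.7 at 5-6ss, 31.8 at 8-9ss, 27.1 at 11-12ss and 367.9 in the whole embryo. The 5-6ss value came mainly from APOA1, an apolipoprotein, with 70.5 RPKM and TTR, transthyretin, with 38.2 RPKM.

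Of the 39 members, 25 were above the RPKM and count thresholds in at least 1 library, against 9603 of the 18365 loci (52.29%). They were 6 of 15 secreted ligands, 2 of 3 intracellular FGFs, 4 of 4 receptors, 3 of 5 receptor-like proteins and modulators, 2 of 2 adaptors, 6 of 8 feedback inhibitors and 2 of 2 ETV factors. Receptors, ETV factors and the 6 expressed feedback inhibitors were above the thresholds in all 5 libraries, and no ligand was. In PPR, 17 members were above the thresholds and none of them was a ligand. The number of ligands above them was 2 at 5-6ss, 3 at 8-9ss, 4 at 11-12ss and 3 in the whole embryo.

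FGF8, a ligand known from otic induction and from limb and brain signalling centres, had 32.8 normalized counts in PPR, 901 at 5-6ss, 2750 at 8-9ss, 2020 at 11-12ss and 929 in the whole embryo. PPR was thus the low library, and the placode at 8-9ss was the high one. FGF8 rose 27.3-fold at 5-6ss over PPR (interval 21.9 to 34.4) and a further 3.08-fold at 8-9ss over 5-6ss (2.79 to 3.40). At 11-12ss it stood at 0.729 times its 8-9ss level, which is within 1.5-fold.

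FGF10 and FGF18 passed the thresholds later. FGF10, which signals through the epithelial form of FGFR2 in many organs, had 18.3 normalized counts in PPR, 143 at 5-6ss, 740.1 at 8-9ss, 1079 at 11-12ss and 55.2 in the whole embryo. FGF18, a relative of FGF8 known from bone and brain development, had 24.2, 109, 1058 and 1834 normalized counts at the same 4 successive stages and 221 in the whole embryo. Both were highest at 11-12ss and were above the thresholds only in the placode at 8-9ss and 11-12ss. At 5-6ss over PPR, FGF10 was already 7.78-fold higher (5.43 to 11.2) and FGF18 was 4.475-fold higher (3.12 to 6.41). Neither was called there, because 79 and 60 reads at 5-6ss left their normalized counts under 300. At 8-9ss over 5-6ss, FGF18 rose 9.81-fold (7.55 to 13.0) and FGF10 rose 5.21-fold (4.12 to 6.68). At 11-12ss over 8-9ss, FGF18 rose again, 1.72-fold (1.58 to 1.87), whereas FGF10 stayed within the threshold at 1.45-fold (1.30 to 1.61).

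FGF16, of the FGF9 subfamily, had its highest level at 5-6ss. It had 11.4 normalized counts in PPR, 463 at 5-6ss, 287 at 8-9ss, 148 at 11-12ss and 4.93 in the whole embryo. Its rise at 5-6ss over PPR, the largest among the members that could be called, was 40.3-fold (28.0 to 59.9), from 255 reads at 5-6ss against 33 reads in PPR. At 8-9ss it fell 1.60-fold relative to 5-6ss, with an interval of 1.33 to 1.91 that reaches below the threshold. The endoderm markers TTR and APOA1 were also highest among the 4 dissected tissues at 5-6ss, and their part in the FGF16 value was not tested.

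FGF3 and FGF19 had the opposite distribution between tissue and embryo. FGF3 had 16.6 normalized counts in PPR, 149 at 5-6ss, 233 at 8-9ss, 521 at 11-12ss and 1866 in the whole embryo. FGF19, the chick counterpart of mouse Fgf15, had 23.1, 156, 131 and 437 normalized counts at these stages and 3180 in the whole embryo. The whole embryo was the high library for both, and among the dissected tissues both were highest at 11-12ss. FGF19 rose 3.32-fold at 11-12ss over 8-9ss (2.67 to 4.16). FGF3 did not reach an RPKM of 4 in any dissected tissue, with 2.64 RPKM at 11-12ss, so its stages were not called.

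In the order of RefSeq genes on the GRCg7b assembly, FGF19, FGF4 and FGF3 lie next to each other with no coding gene between them. FGF4 also had its reads in the whole embryo, with 72 counts, against 0, 0, 0 and 2 counts from PPR to 11-12ss. A count of 0 allows up to 3 reads in a library. Each of the 3 neighbours was thus highest in the whole embryo.

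FGF1, which has no classical secretion signal, lay at the edge of the thresholds. Its normalized counts were 76.3 in PPR, 299 at 5-6ss, 198 at 8-9ss, 214 at 11-12ss and 40.5 in the whole embryo. With the size factors of the 2 libraries alone it passed at 5-6ss and rose 3.90-fold over PPR (3.17 to 4.79). The other 8 ligands were low everywhere: FGF5, FGF6, FGF9, FGF20, FGF22 and FGF23 had at most 76 counts in any library, FGF4 had its 72 counts in the whole embryo, and FGF7 had 0 counts in all 5.

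**Figure D1:**
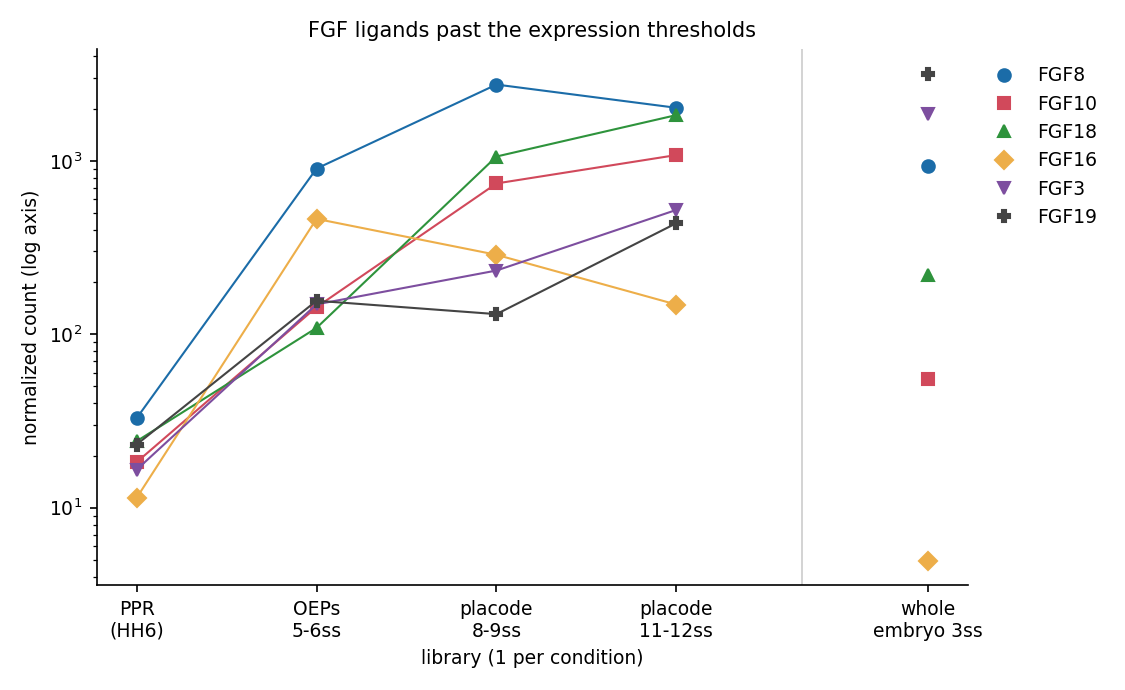
Normalized counts (log axis) of the 6 FGF ligands above the expression thresholds, by library, with the 4 dissected tissues joined by lines and the whole embryo at 3ss as single points on the right. FGF8 leads in the dissected tissues from 5-6ss on, and FGF10 and FGF18 climb at each stage from PPR to 11-12ss. FGF16 peaks at 463 at 5-6ss, and FGF19 and FGF3 are highest in the whole embryo at 3180 and 1866.

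Per length, the ligands of PPR were a small pool. Summed over the 15 ligands, RPKM was 8.27 in PPR, 76.0 at 5-6ss, 198.8 at 8-9ss, 201.6 at 11-12ss and 100.7 in the whole embryo. FGF8 made up 16.4% of that sum in PPR, 42.4% at 5-6ss, 55.7% at 8-9ss, 38.3% at 11-12ss and 37.7% in the whole embryo. By raw counts, not corrected for length, its share was 12.9%, 39.0%, 50.3%, 31.6% and 14.4% in the same libraries. FGF16 was the next at 5-6ss with 29.4%, and FGF18 was the next at 11-12ss with 33.9%. In the whole embryo the next was FGF19 with 29.7%, against 2.08% for FGF19 at 11-12ss. By counts FGF19 and FGF3 led there, with 49.2% and 28.9%, so the order of ligands in the whole embryo depends on the scale. These sums combine RPKM estimates of loci of different length, and the measured length of FGF16, FGF8 and FGF18 lay in the lowest 10% of expressed loci (5.34, 8.96 and 9.20 percentile). FGF2, whose symbol in the data fell outside the rule, is not in these sums. It had 2.73 RPKM in PPR, where the highest of the 15 ligands was FGF1 with 1.74 RPKM.

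The 4 signalling receptors moved apart. FGFR1 had 26664 normalized counts in PPR, 26137 at 5-6ss, 25673 at 8-9ss, 27389 at 11-12ss and 21776 in the whole embryo, and was called at no step. FGFR2 had 21029, 3408, 1085 and 1046 normalized counts from PPR to 11-12ss and 5905 in the whole embryo. FGFR3 had 22286, 2822, 2098 and 1945 normalized counts over the same stages and 7688 in the whole embryo. PPR was the highest library for FGFR2 and FGFR3, and the placode at 11-12ss was the lowest. FGFR4 had 5647 normalized counts in PPR and between 1537 and 1897 in each of the other 4 libraries.

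At 5-6ss over PPR, FGFR3 fell 7.95-fold (7.56 to 8.36), FGFR2 fell 6.21-fold (5.93 to 6.50) and FGFR4 fell 3.00-fold (2.81 to 3.19), whereas FGFR1 was at 0.974 times its PPR level (0.957 to 0.992). FGFR2 fell a second time at 8-9ss over 5-6ss, 3.11-fold (2.88 to 3.37). No receptor was called at 11-12ss over 8-9ss, where the 4 ratios lay between 0.92 and 1.15.

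The makeup of receptor transcripts narrowed to FGFR1. Of the RPKM summed over the 4 receptors, FGFR1 took 48.6% in PPR, 84.9% at 5-6ss, 91.2% at 8-9ss, 91.1% at 11-12ss and 72.8% in the whole embryo. By raw counts, which are not corrected for length, its share was 35.3%, 76.3%, 84.5%, 85.2% and 58.5% in the same libraries. The order of the 5 libraries was alike on both scales except for the 2 placode stages, which lie within 1 percentage point of each other. The summed receptor RPKM was highest in PPR at 459.6 and lay between 289.3 and 336.3 in the other 4 libraries. PPR had by far the most reads of the 5 libraries, and neural tube markers (4 of 9 matched) were also lower at 5-6ss, with 24.0 RPKM at 5-6ss against 166.2 RPKM in PPR. Most of that difference was ZIC2 (136.1 RPKM in PPR, 13.1 at 5-6ss), followed by SOX2 (27.1 and 10.3 RPKM). The part of these markers in the receptor values was not tested. With counts thinned to the depth of the smallest library, none of the called receptor ratios turned round. Thinning leaves the expected ratio unchanged, so the part of depth in the receptor values was not tested by it.

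**Figure D2:**
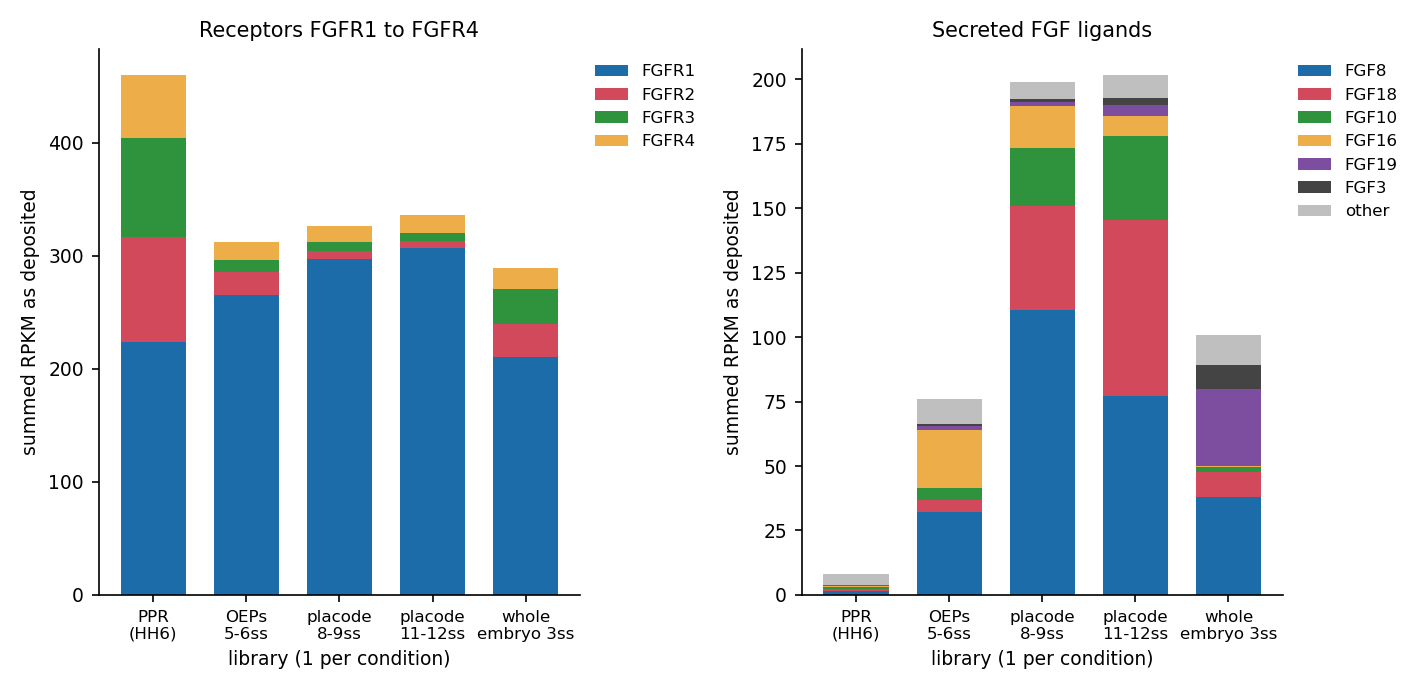
Stacked RPKM as deposited for the receptors FGFR1 to FGFR4 (left) and the 15 secreted ligands (right), for the 4 dissected tissues in order of stage and the whole embryo at 3ss. FGFR1 takes 48.6% of receptor RPKM in PPR and 91.1% at 11-12ss, while summed ligand RPKM is 8.27 in PPR and 201.6 at 11-12ss.

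Proteins at the receptor were less uniform. FGFRL1, a receptor relative that lacks the kinase domain, had 135 normalized counts in PPR, 179.6 at 5-6ss, 165 at 8-9ss, 677 at 11-12ss and 857 in the whole embryo. It rose 4.08-fold at 11-12ss over 8-9ss (3.38 to 4.96), the largest change among the 21 members that could be called at that step. FLRT3, a membrane protein that associates with FGF receptors and promotes their signalling in Xenopus, had 1294 normalized counts in PPR, between 3179 and 3712 at the otic stages and 1786 in the whole embryo. It rose 2.52-fold at 5-6ss over PPR (2.38 to 2.67) and was then within the threshold. FLRT2, of the same family, alternated: 401 normalized counts in PPR, 667 at 5-6ss, 349 at 8-9ss, 558 at 11-12ss and 116 in the whole embryo, and it was called at every step, with ratios of 1.66, 0.529 and 1.59. The intervals of the first (1.47 to 1.86) and the last (1.36 to 1.85) reach below the threshold. FGFBP1 and FGFBP2, carriers that release FGFs from the matrix, had at most 32 counts in any library.

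The adaptors FRS2 and FRS3, which couple the activated receptor to RAS and SHP2, differed in their course. FRS2 had 610.1 normalized counts in PPR, 158 at 5-6ss, 195 at 8-9ss, 215 at 11-12ss and 265 in the whole embryo, and fell 3.89-fold at 5-6ss over PPR (3.14 to 4.88). FRS3 had 457 normalized counts in PPR, 691 at 5-6ss, 674 at 8-9ss, 1196 at 11-12ss and 491 in the whole embryo. FRS3 was at the threshold at 5-6ss over PPR with 1.502-fold (1.34 to 1.69, and 1.30-fold by RPKM), and rose 1.76-fold at 11-12ss over 8-9ss (1.58 to 1.96). PPR was thus the high library for FRS2 and the low one for FRS3.

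The intracellular FGFs bind sodium channels and do not act as secreted ligands. FGF12 had 1045 normalized counts in PPR, 1066 at 5-6ss, 1201 at 8-9ss, 2020 at 11-12ss and 778 in the whole embryo, and rose 1.67-fold at 11-12ss over 8-9ss (1.54 to 1.81). At 5-6ss over PPR its count ratio was 1.01 but its RPKM ratio was 2.28, so its first step depends on the measure. FGF13 had 238 normalized counts in PPR, 131 at 5-6ss, 155 at 8-9ss, 62.8 at 11-12ss and 369 in the whole embryo, and fell 1.83-fold at 5-6ss over PPR. That call is weak: the interval of 1.44 to 2.37 reaches below the threshold, it was 1.37-fold lower by RPKM, and with size factors over all 5 libraries its count is under 300. FGF14 had at most 59 counts in any library.

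Among the 6 feedback inhibitors above the thresholds, SPRY2 and IL17RD changed most at 5-6ss over PPR. SPRY2, a Sprouty protein that dampens RAS-MAPK signalling, had 479.9 normalized counts in PPR, 4137 at 5-6ss, 4585 at 8-9ss, 3016 at 11-12ss and 1855 in the whole embryo. It rose 8.57-fold at 5-6ss over PPR (8.01 to 9.17). At 11-12ss it was 1.53-fold lower than at 8-9ss (1.45 to 1.61), a call at the threshold that was lost with total count scaling and with RPKM. IL17RD had 2862, 11780, 11041 and 9011 normalized counts from PPR to 11-12ss and 4546 in the whole embryo, and rose 4.09-fold at 5-6ss over PPR (3.96 to 4.23). Both had their 3 otic libraries above PPR and above the whole embryo.

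The Spred proteins, which hold back RAF activation, rose less. SPRED1 had 1425 normalized counts in PPR, 3261 at 5-6ss, 2990 at 8-9ss, 3680 at 11-12ss and 1676 in the whole embryo, and rose 2.27-fold at 5-6ss over PPR (2.15 to 2.40). SPRED2 had 1296 normalized counts in PPR, 2039 at 5-6ss, 2773 at 8-9ss, 3798 at 11-12ss and 2562 in the whole embryo. SPRED2 was called at the first step alone, with 1.56-fold (1.46 to 1.67), and was at 1.37- and 1.36-fold at the later steps.

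Of the MAPK phosphatases, DUSP4 rose at the first step and DUSP7 was called at none. DUSP4, which is nuclear, had 708 normalized counts in PPR, 1244 at 5-6ss, 1228 at 8-9ss, 1018 at 11-12ss and 935 in the whole embryo, and rose 1.75-fold at 5-6ss over PPR (1.60 to 1.91). DUSP7, which is cytoplasmic, had between 2157 and 2643 normalized counts in the 4 dissected tissues and 1428 in the whole embryo. SPRY3 had at most 10 counts in any library. SPRY4 had 12, 32, 47 and 69 counts from PPR to 11-12ss and 72 in the whole embryo, and is listed with an RPKM of 0 throughout. Its ratio at 5-6ss over PPR was 13.9 (6.98 to 29.7), not called at these low counts.

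The ETV factors, which carry the MAPK signal to the genome, were high from 5-6ss on. ETV4 had 714 normalized counts in PPR, 5403 at 5-6ss, 6599 at 8-9ss, 7062 at 11-12ss and 3049 in the whole embryo. ETV5 had 6178, 10168, 9172 and 10274 normalized counts from PPR to 11-12ss and 5584 in the whole embryo. PPR was below all other libraries for ETV4, whereas for ETV5 the whole embryo was lower still. At 5-6ss over PPR, ETV4 rose 7.53-fold (7.11 to 7.96) and ETV5 rose 1.64-fold (1.59 to 1.69), and neither was called at a later step. Per length, ETV5 was above ETV4 in PPR with 31.7 against 8.15 RPKM, and at 11-12ss ETV4 stood at 67.8 RPKM and ETV5 at 51.6 RPKM.

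**Figure D3:**
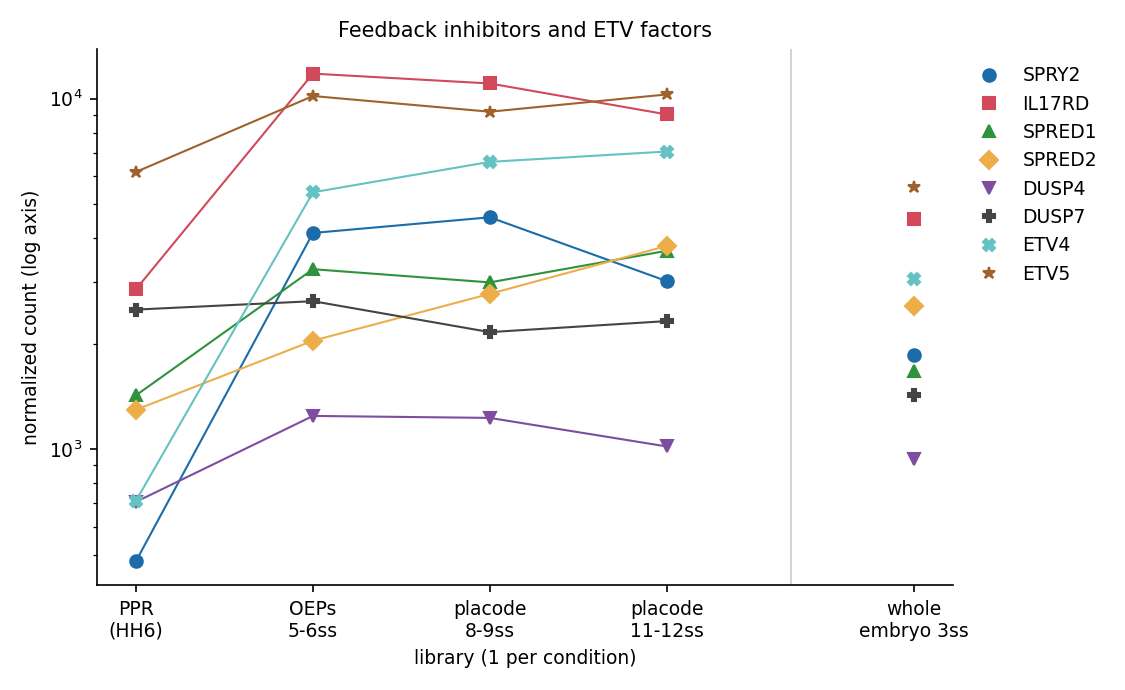
Normalized counts (log axis) of 6 feedback inhibitors and of ETV4 and ETV5 by library, with the 4 dissected tissues joined by lines and the whole embryo at 3ss as single points on the right. SPRY2, ETV4 and IL17RD climb between PPR and 5-6ss, by 8.57-, 7.53- and 4.09-fold. SPRY2 is lower again at 11-12ss, and DUSP7 lies between 2157 and 2643 in the dissected tissues.

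Beside the members, 3 loci whose symbol fell outside the rule were read by their description, a choice made after their values were seen. The locus listed as MKP3 is DUSP6, the cytoplasmic phosphatase of ERK. It had 1169 normalized counts in PPR, 8773 at 5-6ss, 10633 at 8-9ss, 7837 at 11-12ss and 2704 in the whole embryo, and rose 7.46-fold at 5-6ss over PPR (7.14 to 7.80). The high libraries were the 3 otic ones, as for SPRY2.

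The locus listed as SPATA5 is described as sprouty 1, and in RefSeq order SPATA5 lies next to SPRY1, so its reads may belong to either gene. It had 1606 normalized counts in PPR, 4725 at 5-6ss, 5129 at 8-9ss, 4956 at 11-12ss and 2375 in the whole embryo. Its ratio at 5-6ss over PPR was 2.92 by counts and 5.72 by RPKM. FGF2, listed as BFGF, had between 41.7 and 69.5 normalized counts in the 5 libraries.

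The step between PPR and 5-6ss was the one at which most members changed. Of 21 members that could be called, 13 rose and 5 fell, against 18% of all 9253 loci called higher and 18.9% called lower. By role, 3 of 3 ligands, 5 of 6 feedback inhibitors, 2 of 2 ETV factors and 2 of 2 FLRT proteins rose, as did 1 of 2 adaptors. The 5 that fell were 3 of 4 receptors, 1 of 2 adaptors and 1 of 2 intracellular FGFs. The intervals of 10 of the 13 and of 4 of the 5 lay wholly past the threshold. The 3 ligands were above the thresholds at 5-6ss and not in PPR, so they could only be called higher, and FRS2 and FGF13 were above them in PPR and not at 5-6ss, so they could only be called lower. Of 16 members above the thresholds in both libraries, 10 rose and 3 fell, against 14.34% and 15.66% of 8045 loci. The sums of the mesoderm, blood and neural crest markers were also higher at 5-6ss than in PPR. Most of the mesoderm difference was FOXC2 (9.08 RPKM in PPR, 30.0 at 5-6ss), while TBX6, TCF15 and MEOX2 were lower at 5-6ss. Most of the blood difference was LMO2 (0.637 RPKM in PPR, 8.37 at 5-6ss). By counts, KDR, CDH5 and HBG1 were also higher at 5-6ss, at 3.78-, 5.80- and 4.96-fold. HBZ had 3 counts in each of the libraries. RUNX1, with 5 counts at 5-6ss, was at 1.09-fold by counts (0.324 to 2.91), with 0.150 RPKM in PPR and 0.133 at 5-6ss. The part of these markers in the counts of members was not tested.

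Over the 31 members whose mean normalized count in the pair reached 10, the median log2 ratio was 0.73, against -0.002 over 14054 loci. It was 2.75 over 9 ligands, 1.19 over 7 feedback inhibitors and -2.11 over the 4 receptors. Each of the 9 ligands and the 7 feedback inhibitors had a ratio above 1, and each of the 4 receptors a ratio below 1. PPR was sequenced 5.10 times as deep as 5-6ss, and with counts thinned to the depth of 5-6ss 11 members were higher and 4 were lower. Among all loci, 1360 were then called higher and 1507 lower, against 1665 and 1746 without thinning.

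**Figure D4:**
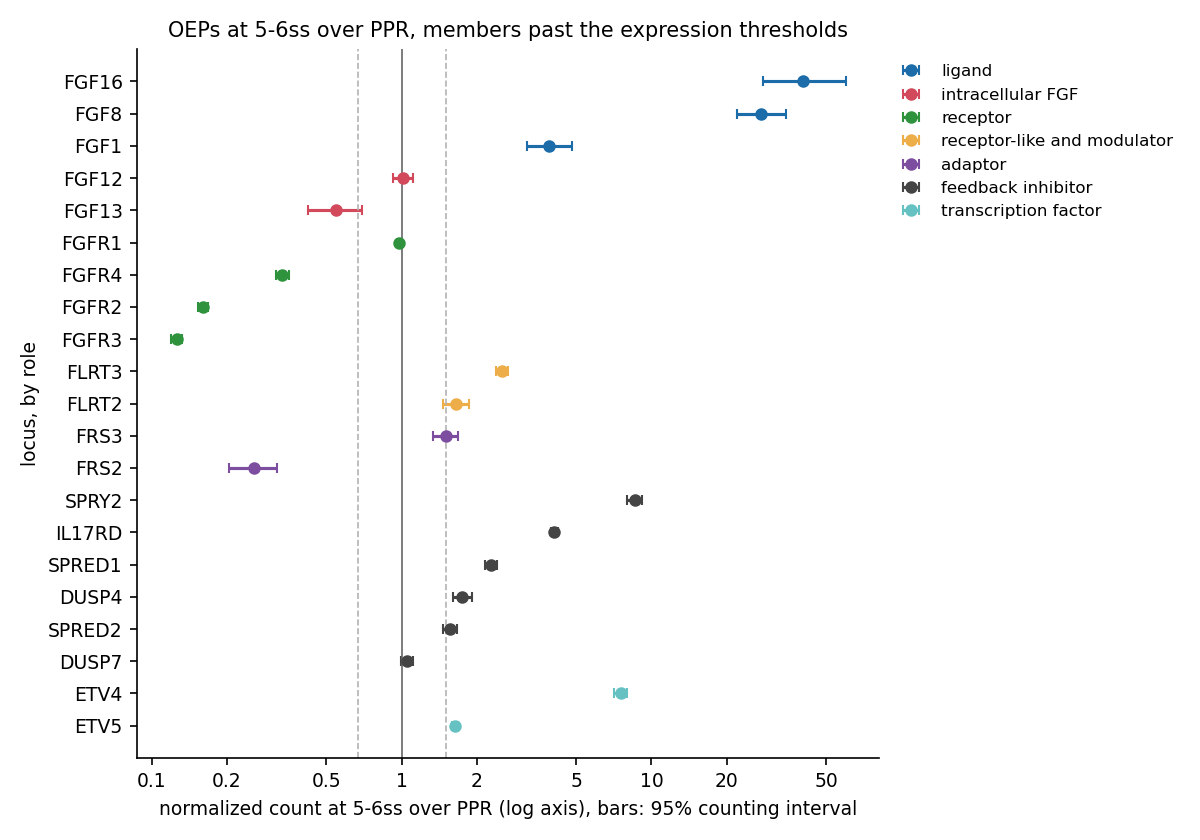
Ratio of normalized counts in OEPs at 5-6ss over PPR (log axis) for the 21 members that could be called, grouped by role, with 95% counting intervals as bars and dashed lines at the 1.5-fold threshold. Ligands, feedback inhibitors and ETV factors lie at or to the right of 1, with FGF16 at 40.3 and FGF8 at 27.3, and FGFR2, FGFR3 and FGFR4 lie to the left.

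At 8-9ss over 5-6ss, 3 of 20 members rose and 3 fell, against 3.89% of 8281 loci called higher and 4.99% called lower. Those that rose were the ligands FGF18, FGF10 and FGF8, and those that fell were FGFR2, FLRT2 and FGF16. None of the 6 feedback inhibitors and neither ETV factor passed the threshold, with ratios between 0.82 and 1.37. FGF18 and FGF10 were below the thresholds at 5-6ss and FGF16 and FLRT2 were below them at 8-9ss, so each could be called in 1 direction only. Of 16 members above the thresholds in both libraries, 1 rose and 1 fell, against 2.701% and 3.35% of 7701 loci. The median log2 ratio of 29 members was -0.06.

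At 11-12ss over 8-9ss, 6 of 21 members rose and 1 fell, against 6.54% of 8529 loci called higher and 3.63% called lower. Those that rose were FGFRL1, FGF19, FRS3, FGF18, FGF12 and FLRT2, and SPRY2 was the only one that fell. FGFRL1, FGF19 and FLRT2 were below the thresholds at 8-9ss and could only be called higher. Of 18 members above the thresholds in both libraries, 3 rose and 1 fell, against 4.369% and 2.917% of 7920 loci. The median log2 ratio of 31 members was 0.20. Over the 3 steps, 14 of the 39 members were too low in the dissected tissues to be called, FGF3 among them. Of the other 25, 2 (FGFR1 and DUSP7) were called at no step, against 5394 of 9468 loci (56.97%).

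Against the whole embryo, the 4 comparisons share 1 library, so their values are given side by side. In PPR, 6 of 23 members were higher and 10 lower than in the whole embryo, against 15.7% of 9467 loci called higher and 12.9% called lower. The higher ones were FGFR2, FLRT2, FGFR4, FGFR3, FRS2 and DUSP7, with ratios between 1.76 and 3.57. The lower ones held the ligands FGF19 (137.1-fold, 108 to 177), FGF3 (112-fold, 84.4 to 153), FGF8 (28.3-fold, 22.9 to 35.3) and FGF18 (9.12-fold, 6.95 to 12.1). ETV4 was 4.26-fold lower, SPRY2 3.86-fold lower and IL17RD 1.59-fold lower, and the others were FGFRL1, SPRED2 and FGF13. The named ligands and FGFRL1 were below the thresholds in PPR and could only be called lower. FRS2 and FLRT2 were below them in the whole embryo and could only be called higher. Of 16 members above the thresholds in both libraries, 4 were higher and 5 lower, against 13.66% and 7.664% of 8299 loci.

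OEPs at 5-6ss had 9 of 21 members higher and 5 lower than the whole embryo, against 13.9% of 8704 loci called higher and 10.2% called lower. Among the higher ones were FLRT2 with 5.70-fold (4.62 to 7.08), IL17RD with 2.58-fold (2.48 to 2.68) and SPRY2 with 2.22-fold (2.09 to 2.36). FGF16 had 255 counts at 5-6ss against 5 counts in the whole embryo, a ratio of 93.3 with an interval of 39.5 to 289.7. FGF8 did not differ by the threshold, at 0.965 times the whole embryo level (0.864 to 1.08). FGF16 and FLRT2 were below the thresholds in the whole embryo and could only be called higher. FGF3, FGF19 and FGFRL1 were below them at 5-6ss and could only be called lower. Of 16 members above the thresholds in both libraries, 7 were higher and 2 lower, against 11.65% and 6.11% of 7692 loci.

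In the placode at 8-9ss, 11 of 22 members were higher and 6 lower than in the whole embryo, against 15% of 8949 loci called higher and 13.1% called lower. FGF10 was 13.4-fold higher (10.2 to 17.9), FGF18 4.77-fold higher (4.12 to 5.55) and FGF8 2.95-fold higher (2.73 to 3.18). FGF10 and FGF18 were below the thresholds in the whole embryo and could only be called higher. FGF3, FGF19, FGFRL1 and FGF13 were below them at 8-9ss and could only be called lower. Of 16 members above the thresholds in both libraries, 9 were higher and 2 lower, against 12.78% and 8.177% of 7827 loci. At 11-12ss, 13 of 23 were higher and 5 lower, against 14.7% of 9004 loci called higher and 12.8% called lower. There FGF10 was 19.3-fold higher (14.7 to 25.7), FGF18 8.18-fold higher (7.09 to 9.46) and FGF8 2.14-fold higher (1.97 to 2.33). At this stage FGF10, FGF18 and FLRT2 could only be called higher, and FGF3 and FGF13 only lower. Of 18 members above the thresholds in both libraries, 10 were higher and 3 lower, against 11.55% and 8.731% of 7846 loci.

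Of 19 members that could be called at each of the 3 otic stages, 7 exceeded the whole embryo at all of them, against 606 of 8572 loci (7.07%): SPRY2, IL17RD, SPRED1, DUSP7, ETV4, ETV5 and FLRT3. Their ratios lay between 1.51 and 2.58. The interval of DUSP7 crosses the threshold at 8-9ss (1.40 to 1.61) and at 11-12ss (1.49 to 1.72), and the RPKM ratio of SPRED1 at 8-9ss was 1.23. FGF3, FGF19, FGFR2 and FGFR3 were lower at each of the 3, against 561 of the 8572 loci (6.545%). FGF3 was below the thresholds at each otic stage, and FGF19 at 5-6ss and 8-9ss, so there they could only be called lower. At 5-6ss FGFR2 was 1.74-fold lower by counts and 1.41-fold lower by RPKM, which is within the threshold. FGF19 was 20.5-fold lower at 5-6ss, 24.4-fold lower at 8-9ss and 7.39-fold lower at 11-12ss, and FGF3 was 12.6-, 8.04- and 3.64-fold lower in that order. The summed mesoderm, endoderm and notochord markers given above were also lower in each dissected tissue than in the whole embryo, although TTR was higher at 5-6ss, with 38.2 RPKM against 20.5 RPKM in the whole embryo, and PRRX1 was higher at 11-12ss. Their part in the FGF3 and FGF19 values was not tested.

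The relay from receptor to nucleus was followed in lists of genes named for their known roles. Of 20 matched RAS-MAPK relay genes, 1 of 19 rose and 7 fell at 5-6ss over PPR, beside 18% and 18.9% of all loci. The scaffold KSR1, the kinase BRAF and the RAS inhibitor NF1 were at 0.313, 0.319 and 0.357 times their PPR level. The adaptor SHC1 rose 1.97-fold by counts, whereas its RPKM of 60.2 in PPR and 78.9 at 5-6ss differed by less than the threshold. Summed over the 20 genes, RPKM lay between 614.9 and 650.4 in all 5 libraries.

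Of 10 matched transcription factors and cell cycle genes known to respond to ERK, 3 of 7 rose and 1 fell at 5-6ss over PPR, beside the same 18% and 18.9%. ETS2 rose 2.56-fold, ELK3 2.16-fold and JUN 1.52-fold, and ELK4 was at 0.490 times its PPR level. The call of JUN is weak: its interval of 1.34 to 1.72 reaches below the threshold, and its RPKM was 15.45 in PPR and 19.5 at 5-6ss. SRF was not called, at 1.448-fold by counts (1.394 to 1.504), whereas its RPKM was 31.1 in PPR and 540.6 at 5-6ss. Its first step thus depends on the measure. At 8-9ss over 5-6ss 0 of 6 rose and 2 fell, beside 3.89% and 4.99% of all loci: ETS2 fell to 0.372 times and CCND1 (cyclin D1) to 0.653 times its level at 5-6ss. The interval of CCND1 (0.619 to 0.689) reaches inside the threshold. At 11-12ss over 8-9ss 1 of 6 rose and 0 fell, beside 6.54% and 3.63% of all loci, and that was MYC with 1.71-fold.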

How the data were processed

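Poly(A) RNA of 5 chick libraries, 1 per condition, was analysed. The authors aligned single or paired reads, in an assignment to libraries that was not used here, to Galgal4 release 71 with TopHat2 2.0.7 and built transcripts with Cufflinks 2.1.1. The deposited counts are raw reads per locus from easyRNAseq 2.1.0. The deposited RPKM values are from Cuffdiff 2.1.1 and are scaled by length and depth.

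Here size factors (median of ratios) divided the counts, over the pair of libraries for fold changes and over all 5 for levels. Counts below 3 were set to 3 for a fold change. Named with values in every library are members above both thresholds in at least 1 library, and FGF3, FGF8, FGF10 and FGF19. Listed pathway genes are named for the 3 largest changes at a step, and others that make up a count of 5 or fewer were added after their values were seen. SRF was named for its RPKM, also after its values were seen. Members and lists were chosen with earlier results of these data known. On simulated data for 5-6ss over PPR, with counting noise alone, 200 of 200 loci planted with a 2-fold change were called, and 0 of 8579 unchanged ones. The planted loci were drawn only from those well above both thresholds. The result therefore does not cover members near or below the thresholds, nor variation between embryos. Alternatives included TMM (edgeR 4.0.16), total count scaling and RPKM ratios. Names and gene order come from RefSeq (GRCg7b), which matched all 39 members by symbol. The later steps of the RAS-MAPK relay list are not reported here.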

Additional observations from a re-analysis of the deposited data

How the results depend on the processing

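No paired analysis was possible because each condition has 1 library, and for the same reason no library could be left out and no replicate test was run. Of 112 alternative counts of members called, 99 were within 1.5 times the count reported. The other 13 were of 2 kinds. With no expression threshold, 22 members instead of 13 were higher at 5-6ss over PPR, 5 instead of 3 were higher and 5 instead of 3 lower at 8-9ss over 5-6ss, and 13 instead of 6 were higher and 5 instead of 1 lower at 11-12ss over 8-9ss. Among all loci, 4523 instead of 1665 were then higher at 5-6ss over PPR. At 8-9ss over 5-6ss, 2050 instead of 322 loci were higher and 2280 instead of 413 lower. At 11-12ss over 8-9ss, 2594 instead of 558 loci were higher and 1770 instead of 310 lower. Against the whole embryo, the same setting gave 10 instead of 6 higher and 18 instead of 10 lower in PPR, 11 instead of 5 lower at 5-6ss, 11 instead of 6 lower at 8-9ss and 10 instead of 5 lower at 11-12ss. Among all loci, it gave 2732 instead of 1486 higher and 4205 instead of 1223 lower in PPR. The loci called lower were 2984 instead of 885 at 5-6ss, 3449 instead of 1176 at 8-9ss and 3182 instead of 1149 at 11-12ss. That setting adds loci of few reads by its construction. The call of SPRY2 as lower at 11-12ss over 8-9ss became 0 members with total count scaling, with RPKM ratios and with an interval wholly past the threshold, since its ratio lies at the threshold.

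Of 755 alternative ratios of single members, 661 stayed within the counting interval. None of the 96 called ratios turned round under these alternatives. Of 55 ratios that were not called, 7 lay on the other side of 1 by RPKM, among them FGF12 in PPR over the whole embryo (1.35 by counts, 0.621 by RPKM) and FGFR1 at 5-6ss over PPR (0.974 and 1.19). Of 35 alternative medians, 1 moved and none changed sign. For PPR over the whole embryo, the higher calls were 54.85% of all calls among all loci by counts and 44.83% by RPKM ratios, where 6 members were higher and 12 lower. No scaling moved the median log2 ratio of all tested loci by over 0.1. The 3 loci named by description, added after seeing the data, brought the higher members at 5-6ss over PPR to 15. Promoter motifs were planned and not analysed here. The single library per condition, and the total of 26858887 counts at 5-6ss, are what limit these values: a change between embryos of a condition cannot be told from a change between stages.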

Other observations

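Further gene groups around the receptor were read from the same lists. Of 23 matched heparan sulfate enzymes, proteoglycans and coreceptors, 2 of 17 rose and 4 fell at 5-6ss over PPR, beside 18% and 18.9% of all loci. GLCE, an epimerase of heparan sulfate, rose 1.57-fold and GPC1, a glypican, 1.51-fold. CDH2 (N-cadherin) and GPC3, another glypican, were at 0.290 and 0.515 times their PPR level, and the enzymes HS6ST2 and EXT2 at 0.613 and 0.626 times. The intervals of GPC1 (1.46 to 1.55), HS6ST2 (0.555 to 0.676) and EXT2 (0.587 to 0.668) reach inside the threshold. By RPKM, GLCE stood at 23.8 in PPR and 31.4 at 5-6ss, GPC1 at 31.4 and 43.2, and EXT2 at 26.1 and 24.8. At 8-9ss over 5-6ss, 2 of 15 rose and 0 fell, beside 3.89% and 4.99% of all loci: CDH2 rose 3.06-fold and HS6ST1, a sulfotransferase, 1.63-fold. The interval of HS6ST1 (1.467 to 1.805) reaches below the threshold. At 11-12ss over 8-9ss, 3 of 17 rose and 0 fell, beside 6.54% and 3.63% of all loci, with SDC3 at 4.43-fold, CDH2 at 2.17-fold and SDC4 at 2.15-fold, of which SDC3 and SDC4 are syndecans.

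Of 6 other dual specificity phosphatases, 0 of 4 rose and 1 fell at 5-6ss over PPR, beside the same 18% and 18.9%, with DUSP8 at 0.279 times its PPR level. Of 3 at each later step, DUSP1 alone was called at 8-9ss over 5-6ss and DUSP5 alone at 11-12ss over 8-9ss, beside the shares of all loci given above for these steps. DUSP1 rose 2.09-fold at 8-9ss over 5-6ss by counts, whereas its RPKM was 106.1 at 8-9ss against 24.6 at 5-6ss. DUSP5 fell to 0.510 times its 8-9ss level at 11-12ss.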
